A study of Homo sapiens with 3 samples.

Results

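Tight junctions were described here by 9 genes of the 58037 in the count table: the claudins CLDN1, CLDN3, CLDN4, CLDN7 and CLDN8, occludin (OCLN), the scaffold genes TJP1 and TJP3, and cingulin (CGN). The members were the rows whose Ensembl identifier maps to these gene symbols, and each of the 9 was found once. They were measured by bulk RNA sequencing of RWPE1, a line of normal human prostate epithelial cells immortalized with a papillomavirus, in 3 libraries with 1 library per condition. The conditions were OLFM4-wild cells, OLFM4-knockout cells, made with CRISPR/Cas9 knockout plasmids, and cells labelled OLFM4-active. OLFM4 encodes olfactomedin 4, a secreted glycoprotein. According to the methods, RNA came from bulk cells sorted for GFP, a fluorescent reporter carried by the edited cells, and activation plasmids were used to make an OLFM4-wild reporter line. Which plasmid the cells of each library carried beyond these labels is not given in the sources used here. All of the libraries came from the 1 parental line, and the edited cells are described as clones, so that a difference between clones and a difference between genotypes cannot be told apart.

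The tight junction is the uppermost seal between neighbouring epithelial cells. Claudins are small proteins that cross the membrane 4 times and join in strands. They set which ions and solutes pass between cells, some as barriers and others as pores. Occludin sits in the same strands, and the scaffolds of the ZO family, encoded by TJP genes, bind claudin tails and link them to actin. Cingulin binds ZO proteins and connects the junction to myosin and to regulators of RHOA. In stratified epithelia, CLDN1 is a barrier claudin, while CLDN3, CLDN4 and CLDN7 are common in glandular epithelia such as that of the prostate.

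Promoter sequence is shown for the pair of members lowest in the OLFM4-knockout library relative to OLFM4-wild, CLDN1 and CGN, and for the pair that was higher there, CLDN4 and CLDN7. RefSeq windows on GRCh38.p14, 250 bases before to 50 after a start, were matched for 8 of the 9 members, in 14 windows. CLDN8 was not matched. In the sequences below capitals mark letters found by a search of both strands for the GC box GGGCGG, the E-box CACCTG that SNAI and ZEB repressors can bind, the AP-1 letters TGANTCA, the grainyhead letters AACCGGTT and the letters TATAAA. The CLDN1 window lies at chr3:190322397-190322696 on the minus strand, the CGN window at chr1:151511137-151511436 on the plus strand, the CLDN4 window at chr7:73830746-73831045 on the plus strand and the second of the CLDN7 windows at chr17:7262429-7262728 on the minus strand.
CLDN1: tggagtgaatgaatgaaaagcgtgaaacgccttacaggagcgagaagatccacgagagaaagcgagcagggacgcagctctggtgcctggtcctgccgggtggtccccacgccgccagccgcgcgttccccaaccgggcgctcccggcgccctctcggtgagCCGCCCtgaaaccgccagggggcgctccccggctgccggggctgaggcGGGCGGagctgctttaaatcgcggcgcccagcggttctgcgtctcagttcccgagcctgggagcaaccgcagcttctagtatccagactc
CGN: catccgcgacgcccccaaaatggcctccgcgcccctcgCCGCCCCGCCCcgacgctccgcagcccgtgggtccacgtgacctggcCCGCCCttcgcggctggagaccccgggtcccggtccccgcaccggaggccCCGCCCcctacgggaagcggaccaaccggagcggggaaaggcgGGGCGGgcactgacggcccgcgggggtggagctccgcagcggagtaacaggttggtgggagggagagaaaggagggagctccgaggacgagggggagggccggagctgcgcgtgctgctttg
CLDN4: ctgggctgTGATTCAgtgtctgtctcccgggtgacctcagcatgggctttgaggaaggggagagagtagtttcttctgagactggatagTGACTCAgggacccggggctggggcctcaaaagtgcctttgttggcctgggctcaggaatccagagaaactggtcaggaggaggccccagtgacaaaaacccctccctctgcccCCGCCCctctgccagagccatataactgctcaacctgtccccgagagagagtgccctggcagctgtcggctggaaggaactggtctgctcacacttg
CLDN7: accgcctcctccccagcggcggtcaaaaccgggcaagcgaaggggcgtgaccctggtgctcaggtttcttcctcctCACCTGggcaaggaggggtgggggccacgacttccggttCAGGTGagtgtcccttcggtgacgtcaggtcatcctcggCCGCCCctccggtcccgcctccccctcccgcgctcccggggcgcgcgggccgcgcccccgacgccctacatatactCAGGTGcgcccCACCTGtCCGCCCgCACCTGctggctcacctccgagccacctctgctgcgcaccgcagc

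The windows of CLDN1 and CGN held 2 and 5 GC boxes and none of the other letters. In the CGN window a pair of the 5 GC boxes overlap by 1 base. The CLDN4 window held 1 GC box and 2 matches to the AP-1 letters, and was the single window of the 14 with these letters. The CLDN7 window shown held 5 E-boxes, of which 3 lie between base -20 and base 5 from the start, and 2 GC boxes, while the other CLDN7 window, at chr17:7263164-7263463, held 0 of either. E-boxes and GC boxes were also found in windows of CLDN3, OCLN, TJP1 and TJP3, which are not shown. Among all 35116 windows of the same length, 45.0% held the GC box, 20.6% the E-box, 7.71% the AP-1 letters, 11.5% TATAAA and 0.134% the grainyhead letters. Neither TATAAA nor the grainyhead letters were found in the 14 windows, 2 of which, for OCLN, overlap each other. The content of G and C was 67.0% in the CLDN1 window, 75.3% in the CGN window, 59.0% in the CLDN4 window and 71.7% in the CLDN7 window, against a median of 58.7% over all windows. CG dinucleotides numbered 31, 37, 5 and 30 in the same order, against a median of 14, so the CLDN4 window stood below the median and the other 3 above it. These matches describe letters and not bound sites. The CLDN1 window also holds the first bases of CLDN16, which starts at chr3:190322541 on the opposite strand, 95 bases upstream of the start of CLDN1 in the annotation.

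The OLFM4-wild library held 16309906 counts, the OLFM4-knockout library 58837147 and the library labelled OLFM4-active 23224216. OLFM4 itself had 214, 131 and 16 counts in that order, or 11.8, 2.55 and 0.670 CPM, so the targeted gene was lowest in the library labelled OLFM4-active, against its label. CPM are counts relative to the library size, with TMM scaling between libraries. The markers fitted a basal epithelial line: 8 of 8 basal genes such as KRT5 and TP63 were expressed, with a sum of 20407 CPM in OLFM4-wild, 43608 in OLFM4-knockout and 24466 in the library labelled OLFM4-active. Of the genes of mature luminal prostate cells, KLK3 was nearly absent at 2, 0 and 0 counts and KLK2 was at 0 in each library. Other luminal markers were expressed: 4 of the 8 in the list passed a mean of 1 CPM, and the list summed to 470, 429 and 310 CPM. Squamous or suprabasal genes were also expressed, with sums of 5300, 7996 and 4303 CPM, and mesenchymal genes summed to 572, 368 and 270 CPM. Endothelial genes summed to at most 1.98 CPM and leukocyte genes to at most 0.881 CPM. Log2 fold changes below are differences of log2 CPM after 0.5 counts were added, and brackets hold 95% Clopper-Pearson intervals unless stated otherwise. With no replicates no test between conditions was possible, and the intervals cover counting error only. In bulk RNA, fewer cells of a type and less RNA per cell cannot be told apart.

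CLDN1 differed most between the libraries among members above 10 CPM. It lies on chromosome 3 from 190305707 to 190322446 on the minus strand, with 4 exons. CLDN1 had 2461 counts in OLFM4-wild, 1191 in OLFM4-knockout and 960 in the library labelled OLFM4-active, or 135, 23.2 and 40.2 CPM. OLFM4-wild was thus far above both other libraries, and the intervals of the 3 levels did not overlap. The OLFM4-knockout level was 5.84-fold lower than OLFM4-wild, a log2 fold change of -2.55 [-2.65, -2.44]. The library labelled OLFM4-active was 3.37-fold lower than OLFM4-wild, at -1.75 [-1.86, -1.64]. Between the latter 2 libraries, OLFM4-knockout was the lower by -0.79 [-0.92, -0.67].

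CLDN7, a claudin found along the lateral membrane and a partner of EPCAM, lies on chromosome 17 from 7259903 to 7263983 on the minus strand. It had 867, 3905 and 1333 counts in OLFM4-wild, OLFM4-knockout and the library labelled OLFM4-active, or 47.7, 76.1 and 55.8 CPM. The order was the reverse of that of CLDN1, with OLFM4-knockout highest and OLFM4-wild lowest. Against OLFM4-wild the log2 fold change of CLDN7 was 0.67 [0.57, 0.78] in OLFM4-knockout and 0.23 [0.10, 0.35] in the library labelled OLFM4-active. With library totals in place of TMM these were 0.32 and 0.11, still above 0. CLDN7 shares 269 exon bases, 10.8% of its merged exons, with another annotated gene, ENSG00000262302, on the same strand, and reads there cannot be assigned to one of them.

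CLDN4, a receptor of Clostridium perfringens enterotoxin as is CLDN3, lies on chromosome 7 from 73799542 to 73832690 on the plus strand. Its counts were 474 in OLFM4-wild, 1906 in OLFM4-knockout and 499 in the library labelled OLFM4-active, or 26.1, 37.1 and 20.9 CPM. OLFM4-knockout was again the highest library, and the library labelled OLFM4-active was lowest. The log2 fold change was 0.51 [0.36, 0.66] in OLFM4-knockout and -0.32 [-0.51, -0.14] in the library labelled OLFM4-active, each against OLFM4-wild. OLFM4-knockout exceeded the library labelled OLFM4-active by 0.83 [0.69, 0.98]. With library totals the first of these values was 0.16.

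CLDN8, a barrier claudin of the distal kidney tubule and colon, lies on chromosome 21 from 30214006 to 30216097 on the minus strand in a single exon. It had 35, 33 and 4 counts, or 1.93, 0.643 and 0.167 CPM, in OLFM4-wild, OLFM4-knockout and the library labelled OLFM4-active. The OLFM4-wild level was highest and the library labelled OLFM4-active lay just above the floor of 3 counts, 0.126 CPM there. Against OLFM4-wild the log2 fold change was -1.58 [-2.31, -0.85] in OLFM4-knockout and -3.37 [-5.48, -2.04] in the library labelled OLFM4-active. The width of the second interval comes from the 4 counts. CLDN3, which lies 29272 bases from CLDN4 at 73768997 to 73770270 on the minus strand of chromosome 7, had 2, 5 and 3 counts. OLFM4-wild and the library labelled OLFM4-active were at or under the floor for CLDN3, and a difference was not detectable at this depth. CLDN3 and CLDN8 were the 2 members whose mean level was under 1 CPM, and the other 7 members passed that filter.

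**Figure D1:**
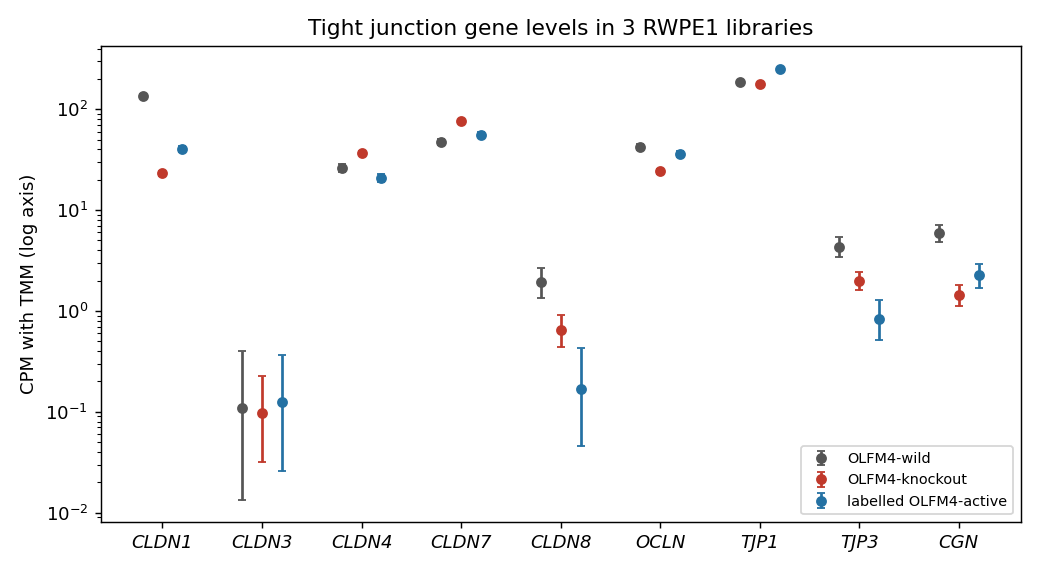
Levels of the 9 members in the OLFM4-wild, OLFM4-knockout and labelled OLFM4-active libraries. The vertical axis is CPM with TMM scaling on a log axis, points are single libraries and bars are 95% intervals of counting error. CLDN1, CLDN8, OCLN, TJP3 and CGN are highest in OLFM4-wild, CLDN4 and CLDN7 in OLFM4-knockout and TJP1 in the library labelled OLFM4-active, while the bars of CLDN3 overlap.

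OCLN encodes occludin, a membrane protein of the strands with a MARVEL domain. It lies on chromosome 5 from 69492292 to 69558104 on the plus strand. OCLN had 767, 1250 and 857 counts, or 42.2, 24.4 and 35.9 CPM, in OLFM4-wild, OLFM4-knockout and the library labelled OLFM4-active. The level was lowest in OLFM4-knockout, with the other 2 libraries closer to each other. The log2 fold change against OLFM4-wild was -0.79 [-0.92, -0.66] in OLFM4-knockout, or -1.15 with library totals, and -0.23 [-0.38, -0.09] in the library labelled OLFM4-active. OCLN shares sequence with copies elsewhere in the genome: 62.75% of the 5547 stretches of 75 bases in its main transcript occur again, against 0% for each of the other 8 members. Since only uniquely mapped reads were counted, the OCLN counts are uncertain as a level.

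TJP1 encodes ZO-1, the main scaffold below the claudins. Its gene lies on chromosome 15 from 29699367 to 29968915 on the minus strand. TJP1 had 3348, 9054 and 6034 counts, or 184, 176 and 253 CPM, in OLFM4-wild, OLFM4-knockout and the library labelled OLFM4-active. OLFM4-wild and OLFM4-knockout were close, and the library labelled OLFM4-active was highest. The log2 fold change against OLFM4-wild was -0.06 [-0.12, -0.01] in OLFM4-knockout and 0.45 [0.39, 0.52] in the library labelled OLFM4-active. With library totals the first was -0.42 and the second 0.34.

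TJP3 encodes ZO-3, a ZO protein restricted to epithelia. It lies on chromosome 19 from 3708362 to 3750813 on the plus strand and had 79, 102 and 20 counts, or 4.35, 1.99 and 0.837 CPM. OLFM4-wild was highest and the library labelled OLFM4-active lowest, the same order as for CLDN8. Its log2 fold change against OLFM4-wild was -1.13 [-1.57, -0.69] in OLFM4-knockout and -2.35 [-3.16, -1.65] in the library labelled OLFM4-active. CGN, on chromosome 1 from 151510510 to 151538692 on the plus strand, had 108, 74 and 54 counts, or 5.94, 1.44 and 2.26 CPM. As for CLDN1, OLFM4-knockout had the lowest CGN level and OLFM4-wild the highest. The log2 fold change of CGN was -2.04 [-2.49, -1.60] in OLFM4-knockout and -1.39 [-1.89, -0.91] in the library labelled OLFM4-active, and OLFM4-knockout was lower than the latter by -0.65 [-1.17, -0.12].

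Past a log2 fold change of 1, the members differed from OLFM4-wild in 1 direction. In OLFM4-knockout 4 of the 9 members, CLDN1, CLDN8, TJP3 and CGN, were below -1 and 0 were above 1. Over the 16600 genes that averaged 1 CPM or more across the libraries, 7.56% were below -1 and 5.77% above 1. CLDN8 and CLDN3 are outside these genes, so 3 of the 4 members below -1 are among the genes that give this share, and without the filter the share below -1 was 24.2%. With library totals 5 members were below -1, since OCLN was at -1.15, and after the libraries were thinned to equal totals 3 were, since CLDN8 was at -0.94. In the library labelled OLFM4-active, CLDN1, CLDN8, TJP3 and CGN were again the 4 members below -1 and 0 were above 1, against 6.73% and 3.78% of the filtered genes. Without the filter 22.4% of genes were below -1 there. Both comparisons share the OLFM4-wild library, so the second is not independent of the first. The median log2 fold change of the 9 members was -0.79 in OLFM4-knockout and -0.32 in the library labelled OLFM4-active. Over the 16600 filtered genes the medians were 0.10 and 0.05, and over the 7 members among them -0.79 and -0.32 again. When OLFM4-knockout was set against the library labelled OLFM4-active, CLDN8 at 1.79 [0.45, 3.90] and TJP3 at 1.22 [0.55, 2.02] were the 2 members above 1 and 0 were below -1, against 2.95% and 3.39% of the filtered genes, which do not include CLDN8. Without the filter 12.3% of genes were above 1. With library totals TJP3 was at 0.98 and CLDN1 at -1.03, so that 1 member was past the fold in each direction. The median of the 9 members was -0.45 there, the value of CLDN3, which had 5 and 3 counts. Over the 7 members that passed the filter it was -0.52, and over all filtered genes 0.08. With library totals the medians over the filtered genes were -0.26, -0.07 and -0.16 in these 3 comparisons.

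**Figure D2:**
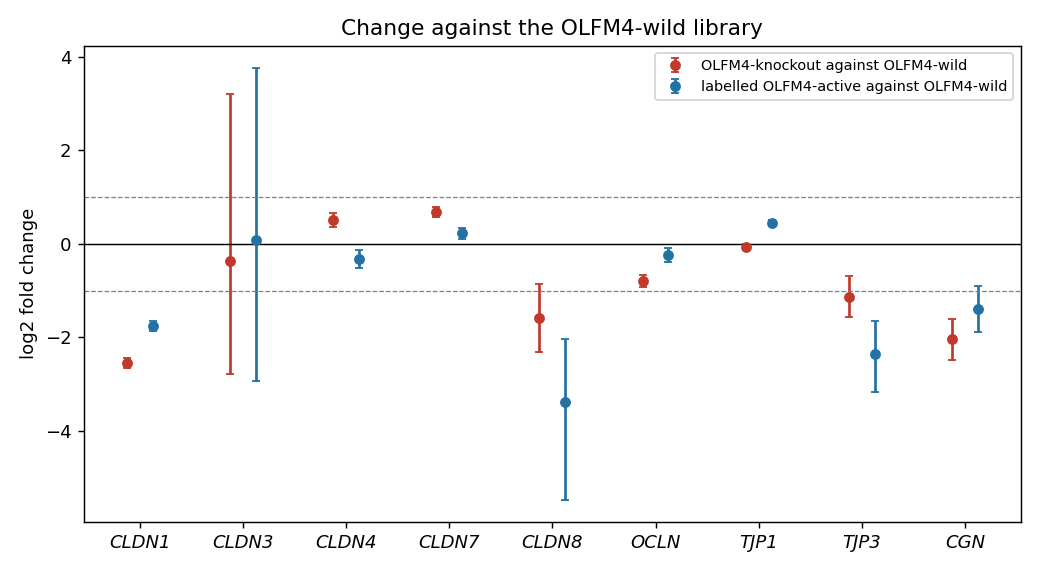
Log2 fold change of each member against the OLFM4-wild library, for OLFM4-knockout and for the library labelled OLFM4-active. Points are the fold changes, bars are 95% intervals of counting error and dashed lines mark 1 and -1. CLDN1, CLDN8, TJP3 and CGN lie below -1 in both, CLDN1 and CGN lower in OLFM4-knockout and CLDN8 and TJP3 lower in the library labelled OLFM4-active.

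Set against TJP1 within the same library, a comparison that library scaling does not change, the members differed from each other in both directions. The brackets of these values are normal approximations from the counts and are rough for CLDN8. In OLFM4-knockout relative to OLFM4-wild, CLDN7 was 0.74 [0.61, 0.86] and CLDN4 0.57 [0.42, 0.73] higher relative to TJP1 on the log2 scale. CLDN1 was lowest relative to TJP1, at -2.48 [-2.60, -2.37], followed by CGN at -1.98 [-2.41, -1.55]. In the library labelled OLFM4-active each of the members above the floor was lower relative to TJP1 than in OLFM4-wild, from -0.23 [-0.37, -0.09] for CLDN7 to -3.83 [-5.25, -2.41] for CLDN8. TJP1 itself was 0.45 higher in that library than in OLFM4-wild, and CLDN7 by its own log2 fold change was 0.23 higher. Relative to TJP1, OLFM4-knockout and the library labelled OLFM4-active could not be told apart for OCLN, at -0.04 [-0.17, 0.09], or for CGN, at -0.13 [-0.64, 0.37]. CLDN4 and CLDN7 did separate these libraries relative to TJP1, at 1.35 and 0.96 higher in OLFM4-knockout, with lower bounds of 1.20 and 0.86. By their own log2 fold changes they were 0.83 and 0.45 higher, while TJP1 was at -0.52.

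The ratio of CLDN1 to the other abundant claudins lay on opposite sides of 1 in OLFM4-wild and OLFM4-knockout. CLDN1 counts were 2.84 times those of CLDN7 in OLFM4-wild (95% interval 2.63 to 3.07), 0.305 times in OLFM4-knockout (0.286 to 0.326) and 0.720 times in the library labelled OLFM4-active (0.662 to 0.783). CLDN1 therefore led CLDN7 in 1 library and trailed it in the other 2. Against CLDN4 the count ratio of CLDN1 was 5.19, 0.625 and 1.92 in the same order. These ratios compare counts, which also depend on gene length.

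Per kilobase of merged exons, the summed level of the 24 claudins in the table was 73.6 CPM per kb in OLFM4-wild, 53.3 in OLFM4-knockout and 46.9 in the library labelled OLFM4-active. CLDN1 made up 50.7% of that sum in OLFM4-wild, 12.0% in OLFM4-knockout and 23.6% in the library labelled OLFM4-active. CLDN7 made up 26.0%, 57.3% and 47.8%, so that the leading claudin of OLFM4-wild was CLDN1 and that of each other library was CLDN7. CLDN4 held 7.54%, 14.8% and 9.48% of the sum. CLDN1, CLDN4 and CLDN7 together held 84.3%, 84.1% and 80.9%, a share that was close in the 3 libraries while its parts were not. CLDN12, a claudin without the usual PDZ-binding tail, held 6.35%, 7.23% and 10.1%. On this length CLDN12 came behind CLDN4 in OLFM4-wild and OLFM4-knockout and ahead of it in the library labelled OLFM4-active. With the length of the canonical transcript in place of merged exons, an alternative chosen after the data were seen, CLDN1 held 38.1%, 7.40% and 15.6% and CLDN7 30.0%, 54.2% and 48.3%, and the leading claudin of each library was the same gene. CLDN4 had 14.9%, 24.1% and 16.5% on that length, since its merged exons span 4699 bases and its canonical transcript 1695. CLDN12 had 8.60%, 8.03% and 12.0% on the canonical length, behind CLDN4 in each library.

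**Figure D3:**
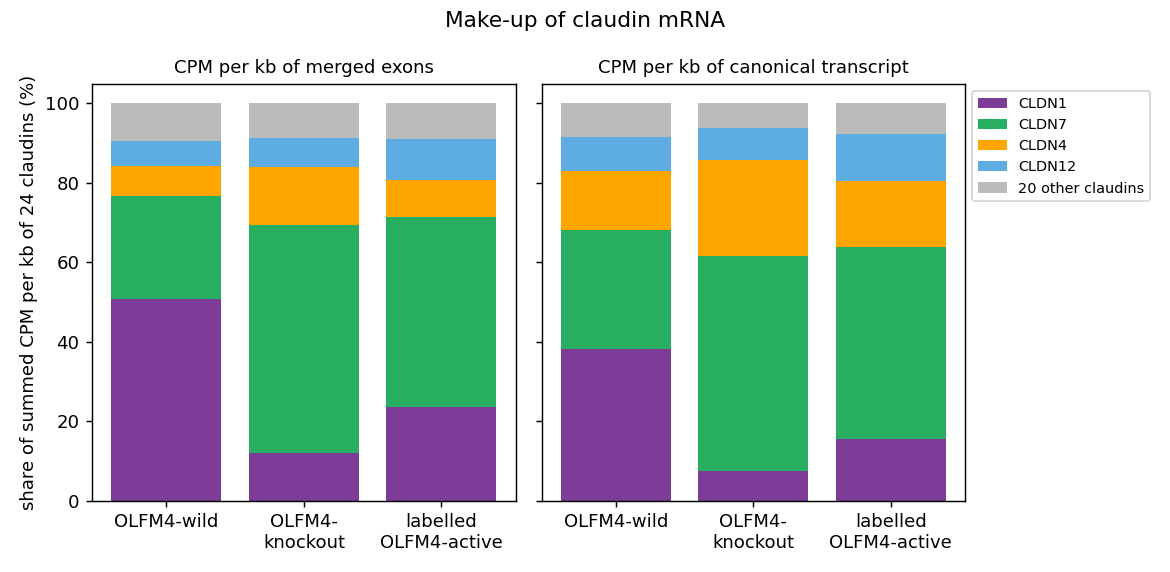
Share of each claudin in the summed CPM per kb of 24 claudins, in percent, for the 3 libraries, by length of merged exons on the left and of the canonical transcript on the right. The CLDN1 part is largest in OLFM4-wild, at 50.7% on the left and 38.1% on the right, and the CLDN7 part is largest in the other libraries on either length.

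Across all 9 members, the order of levels per kb of merged exons in OLFM4-wild was CLDN1 at 37.3 CPM per kb, CLDN7 at 19.1, TJP1 at 16.3, CLDN4 at 5.55 and OCLN at 3.75. TJP3 at 1.10, CLDN8 at 0.921 and CGN at 0.898 CPM per kb followed with overlapping intervals, and CLDN3 was last. In OLFM4-knockout the order was CLDN7 at 30.5 CPM per kb, TJP1 at 15.6, CLDN4 at 7.90, CLDN1 at 6.40 and OCLN at 2.16, so CLDN1, which led in OLFM4-wild, stood behind CLDN7, TJP1 and CLDN4. In the library labelled OLFM4-active CLDN7 and TJP1 were level, at 22.4 and 22.3 CPM per kb with overlapping intervals, ahead of CLDN1 at 11.1, CLDN4 at 4.44 and OCLN at 3.19. On canonical length CLDN4 and CLDN1 in that library were 12.3 and 11.7 CPM per kb, with overlapping intervals. The place of OCLN in these orders is uncertain, since much of its sequence occurs elsewhere and only uniquely mapped reads were counted.

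The other 19 claudins were low, apart from CLDN12. Of the 19, CLDN12, CLDN15 and CLDN23 passed a mean of 1 CPM. CLDN12 had 570, 1326 and 757 counts, or 31.4, 25.8 and 31.7 CPM. In CPM, which also depend on gene length, CLDN12 was above CLDN4 in OLFM4-wild and in the library labelled OLFM4-active. Per kb of merged exons CLDN4 was the higher in OLFM4-wild, at 5.55 against 4.68 CPM per kb. Per kb of canonical transcript CLDN4 was the higher in each library. CLDN12 was 0.01 on the log2 scale in the library labelled OLFM4-active and -0.28 in OLFM4-knockout, each against OLFM4-wild. CLDN23 had 59, 119 and 28 counts, and at -1.46 [-2.17, -0.80] in the library labelled OLFM4-active it was the single one of the 3 past 1 in either direction. CLDN15, a pore claudin of the intestine, had 55, 96 and 61 counts. CLDN16, the kidney claudin that adjoins CLDN1 head to head, had 13, 12 and 15 counts. CLDN2, the best known cation pore, had 4, 12 and 6 counts, and CLDN5, the main endothelial claudin, 4, 0 and 2. CLDN24 and CLDN25 were at 0 in each library, and the remaining 11 other claudins had at most 42 counts in any library.

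Of 53 other tight junction genes 30 passed a mean of 1 CPM, and in OLFM4-knockout all but 2 of these lay within a log2 fold change of 1. In OLFM4-knockout 1 of the 30 was above 1, MPDZ at 1.02 [0.75, 1.31], and 1 was below -1, AMOT at -3.72 [-4.23, -3.26]. MPDZ encodes a scaffold with many PDZ domains that binds claudin tails. AMOT encodes angiomotin, a scaffold that binds PATJ and YAP, and it had 212, 45 and 18 counts in OLFM4-wild, OLFM4-knockout and the library labelled OLFM4-active. In the latter library 0 of the 30 were above 1 and 2 were below -1, AMOT at -3.92 [-4.74, -3.26] and CLDN23. Of all filtered genes 7.56% were below -1 and 5.77% above 1 in OLFM4-knockout, or 6.73% and 3.78% in the library labelled OLFM4-active. The median of the 30 was -0.04 in OLFM4-knockout and 0.03 in the library labelled OLFM4-active. After AMOT the lowest in OLFM4-knockout were CLDN15 at -0.70, CLDN23 at -0.49, AMOTL2 at -0.41 and PALS1 at -0.38. CLMP, an adhesion protein of the CAR family, was 0.83 higher in OLFM4-knockout and 0.87 higher in the library labelled OLFM4-active on the log2 scale. TJAP1 at 0.60, PRKCI at 0.32 and JAM3 at 0.29 followed in OLFM4-knockout, where with library totals PRKCI was at -0.03 and JAM3 at -0.06. Library totals also put MPDZ at 0.67, no longer above 1, and CLDN15 at -1.05, below -1.

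Close relatives of OCLN and CGN gave mixed values. MARVELD2, which encodes tricellulin, the MARVEL protein of corners where cells meet, had 95.4, 102 and 102 CPM in OLFM4-wild, OLFM4-knockout and the library labelled OLFM4-active. CGNL1, the paralog of CGN, had 32, 1 and 9 counts and did not pass the filter. MARVELD2 and CGNL1 were chosen as relatives after their values were seen.

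Between OLFM4-knockout and the library labelled OLFM4-active, 0 of the 30 genes were past 1 in either direction and their median was 0.03. The shares of all filtered genes were 2.95% above 1 and 3.39% below -1. The highest were CLDN23 at 0.96, PRKCZ at 0.60, ILDR1 at 0.53, TJAP1 at 0.44 and F11R, which encodes JAM-A, at 0.40. CLDN15 at -0.45, MAGI1 at -0.39, CLDN12 at -0.30, AMOTL1 at -0.28 and PATJ at -0.26 were the lowest. Relative to OLFM4-wild, in the library labelled OLFM4-active MPDZ at 0.84, JAM3 at 0.38, PRKCI at 0.35 and AFDN at 0.30 were the highest after CLMP. ILDR1 at -0.84, MARVELD3 at -0.61 and AMOTL2 at -0.59 were the lowest after AMOT and CLDN23.

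Genes of the adherens junction, the belt of cadherins and catenins below the tight junction, were set beside the members. Of 11 genes, 0 were above 1 and 1 was below -1 in OLFM4-knockout, NECTIN4 at -1.22, and their median was 0.10. The library labelled OLFM4-active had 1 gene above 1, VCL at 1.36, and 1 below -1, NECTIN4 at -1.81, with a median of 0.13. Of all filtered genes 7.56% were below -1 and 5.77% above 1 in OLFM4-knockout, or 6.73% and 3.78% in the library labelled OLFM4-active. CDH1, which encodes E-cadherin, was 0.30 higher in OLFM4-knockout than in OLFM4-wild with TMM and -0.05 with library totals. This comparison of lists is a description, since no test between them was possible.

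**Figure D4:**
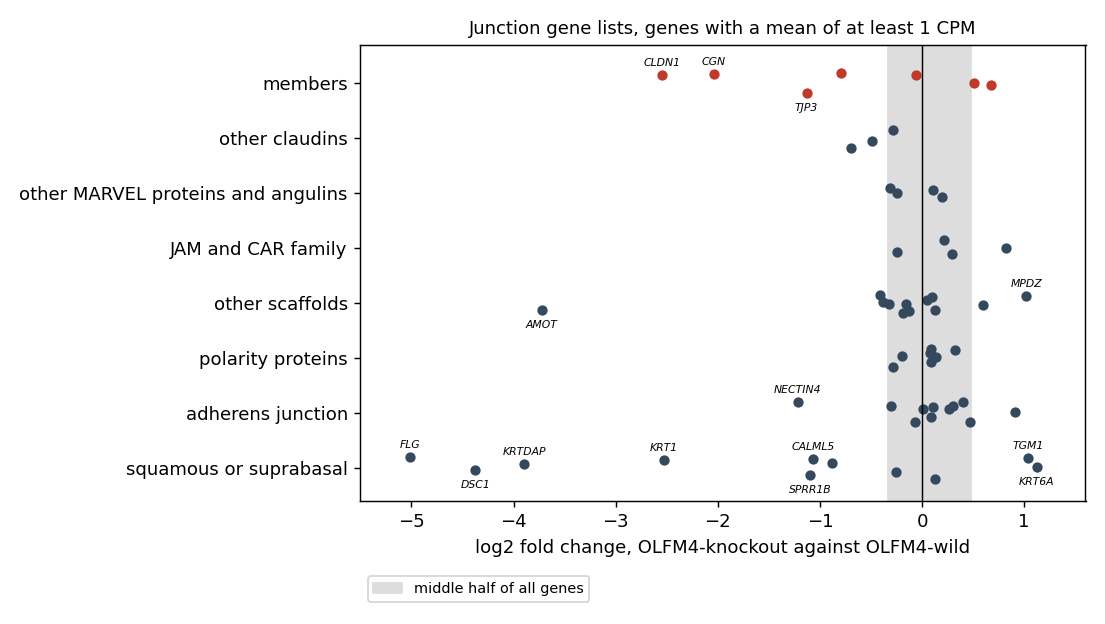
Log2 fold change of OLFM4-knockout against OLFM4-wild for genes averaging 1 CPM or more, by list, with the 7 members that passed in red. Each point is a gene, and genes past 1 or -1 are named. The grey band runs from -0.34 to 0.48, the middle range of all genes averaging 1 CPM or more. CLDN1, CGN, TJP3 and OCLN lie left of the band with AMOT, CLDN15, NECTIN4 and several squamous genes. CLDN4, CLDN7, MPDZ, CLMP and TJAP1 lie right of it, and of the members TJP1 alone lies within it. Most other junction genes lie in or near the band.

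Of 29 genes known to regulate claudins or junctions, 25 passed a mean of 1 CPM. In OLFM4-knockout 0 were above 1 and 3 were below -1: ELF3 at -1.31 [-1.51, -1.12], an epithelial ETS factor, PRSS8 at -1.09 [-1.24, -0.94], the membrane protease prostasin, and ZEB1 at -1.15 [-1.75, -0.55], a repressor of epithelial genes. The library labelled OLFM4-active had 0 above 1, and ELF3 at -2.10, PRSS8 at -1.12 and ZEB1 at -1.20 were the 3 below -1. Of all filtered genes 7.56% were below -1 and 5.77% above 1 in OLFM4-knockout, or 6.73% and 3.78% in the library labelled OLFM4-active. EPCAM, whose protein binds claudin 7, had 32.9, 51.2 and 57.1 CPM in OLFM4-wild, OLFM4-knockout and the library labelled OLFM4-active. Like CLDN7 it was lowest in OLFM4-wild, but CLDN7 was highest in OLFM4-knockout and EPCAM in the library labelled OLFM4-active. SNAI2, a repressor of the E-box, had 54.1, 29.1 and 44.4 CPM, the same order as OCLN, CLDN1 and CGN. With library totals the log2 fold change of SNAI2 in OLFM4-knockout was -1.25, below -1. The part of these regulators in the levels of the members was not tested.

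The genes whose pattern over the 3 libraries was most like that of CLDN1, of the 10596 genes averaging 10 CPM or more, were KRT1, MXRA5, PXDN, PLXDC2 and BGN. Likeness was the Euclidean distance between log2 CPM centred over the libraries. KRT1, a keratin of suprabasal keratinocytes, was nearest at a distance of 0.0133, with 463, 80.2 and 137 CPM in OLFM4-wild, OLFM4-knockout and the library labelled OLFM4-active. MXRA5 followed at 0.107, PXDN at 0.187, PLXDC2 at 0.219 and BGN at 0.225. With 3 libraries many genes can share an order, and the distances describe only these libraries.

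Many markers of squamous or suprabasal cells were lower, as CLDN1 was, in the libraries other than OLFM4-wild. Of 12 such genes 11 passed a mean of 1 CPM, and 6 of the 11 were below -1 in OLFM4-knockout, FLG at -5.01, DSC1 at -4.37, KRTDAP at -3.89, KRT1 at -2.53, SPRR1B at -1.10 and CALML5 at -1.06. KRT6A at 1.12 and TGM1 at 1.04 were the 2 above 1, or 0.77 and 0.68 with library totals, with which DSG1 at -1.24 was also below -1. The library labelled OLFM4-active also had 6 of the 11 below -1 and 0 above 1. Of all filtered genes 7.56% were below -1 and 5.77% above 1 in OLFM4-knockout, or 6.73% and 3.78% in the library labelled OLFM4-active. The summed level of the list was 5300 CPM in OLFM4-wild, 7996 in OLFM4-knockout and 4303 in the library labelled OLFM4-active, a sum led by keratins. Mesenchymal markers summed to 572, 368 and 270 CPM and luminal markers to 470, 429 and 310 CPM, while neuroendocrine markers summed to 13.3, 3.58 and 5.02 CPM. The part of these markers in the differences of the members was not tested.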

How the data were processed

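Bulk total RNA of RWPE1 cells, depleted of ribosomal RNA and sequenced from stranded libraries, was measured in 3 libraries, 1 per condition. The authors trimmed reads with cutadapt, aligned them with HISAT2 and deposited whole-number counts of uniquely mapped read pairs per gene from featureCounts, which are not normalized. Unique mapping lowers the counts of genes with copies elsewhere.

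Positions, lengths and symbols came from GENCODE version 44, which held 56993 of the 58037 identifiers, and promoters from RefSeq. In R 4.3.3, TMM factors of edgeR 4.0.16 set the library sizes. Log2 CPM followed the voom transform (limma 3.58.1), which adds 0.5 counts. Other steps used Python 3.11.15, numpy 2.4.6, pandas 2.3.3, scipy 1.17.1 and matplotlib 3.10.9. The calculation was tested on simulated data. No test between conditions could be fitted. Shares of all genes used a mean of at least 1 CPM, and 3 counts were the floor.

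The text names the members, OLFM4, the other claudins by counts, the 5 highest and 5 lowest other tight junction genes in each comparison, marker genes needed to describe a list, and the 5 genes nearest to CLDN1, the member with the widest range among those with a mean of at least 10 CPM. Genes of the adherens junction and regulator lists are named where they passed a log2 fold change of 1, and CDH1, EPCAM and SNAI2 were added after their values were seen. Some results that fall under these lists are not reported here. The members and lists were chosen with earlier results of these data known. Alternatives were library totals, DESeq2 1.42.0 size factors, upper quartile factors, offsets of 1 and 5 counts, thinning to 16309906 counts and other filters.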

Additional observations from a re-analysis of the deposited data

How the results depend on the processing

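Of 162 log2 fold changes of the members under 6 alternatives, 160 kept their sign. The other 2 were those of CLDN3 between the library labelled OLFM4-active and OLFM4-wild, at -0.02 with library totals and -0.20 with an offset of 5 counts, where the counts are 2 and 3. Of the 162 values, 16 lay outside the counting interval of the main value. Among these were CLDN7 and CLDN4 in OLFM4-knockout against OLFM4-wild, at 0.32 and 0.16 with library totals. The median of the members in OLFM4-knockout against OLFM4-wild was -1.15 with library totals and -0.98 with an offset of 5 counts. The latter is the value of CLDN3, which had 2 counts in OLFM4-wild and 5 in OLFM4-knockout. Between OLFM4-knockout and the library labelled OLFM4-active, 1 member was above 1 with library totals, 0 with an offset of 5 counts and 1 after thinning, and 1 member was below -1 with library totals and 1 after thinning. In OLFM4-knockout against OLFM4-wild 5 members were below -1 with library totals and 3 after thinning, in place of 4.

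Without a filter on low counts the share of all genes above 1 was 10.1% in OLFM4-knockout against OLFM4-wild, 14.8% when the library labelled OLFM4-active was set against OLFM4-wild and 12.3% when OLFM4-knockout was set against the former, and the shares below -1 were 24.2%, 22.4% and 18.1%. At a mean of at least 10 CPM the shares below -1 were 2.93%, 2.49% and 1.94%, and those above 1 were 2.35% and 1.20% in the comparisons with the library labelled OLFM4-active. No paired analysis was possible because each condition had 1 library, and for the same reason no replicate could be left out. Depth limits CLDN3 and CLDN8, with at most 5 and 35 counts.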
